A study of Rattus norvegicus with 22 samples.

Results

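The comparison described here is that of the injured with the sham-operated hippocampus 14 days after lateral fluid percussion, a rat model of traumatic brain injury (TBI) in which a pressure pulse is delivered to the dura through an opening in the skull. It rests on 8 of the 22 samples of the series, 4 TBI day 14 and 4 sham day 14, out of 14 RNA-seq samples in all. They were chosen by their labels alone, and the members described are the 12875 of 17172 listed genes with enough counts to be tested. All rats were adult male Sprague-Dawley animals, and the tissue was whole hippocampus from the side of the injury. Sham rats had the same anesthesia, scalp incision, right parasagittal craniectomy and injury hub as TBI rats, which had an injury of moderate severity, and no pressure pulse, so what the craniectomy itself does is shared by both groups. Libraries were made from polyadenylated RNA, and the 4 sham libraries held 15506103 to 19175585 counts and the 4 TBI libraries 15065540 to 19781459. Expression is given as CPM, the counts of a gene relative to those of its library after TMM scaling, in the order of replicates 1 to 4. Differences are log2 fold changes, TBI minus sham, ± a standard error worked back from the test. It is the size of the log2 fold change divided by the square root of its F statistic, so it restates the test. For genes near 0 in sham it is a poor measure of the uncertainty of the fold. A gene is called a differentially expressed gene (DEG) when its p-value by edgeR, adjusted over all tested genes by the Benjamini-Hochberg method, was under 0.05.

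Microglia are the resident phagocytes of the brain. After injury they proliferate, take up debris, and make complement, class II major histocompatibility (MHC) molecules and lysosomal enzymes, while astrocytes enlarge and fill with the intermediate filament protein GFAP. Cholesterol does not cross the blood-brain barrier in quantity, so brain cells make their own through the mevalonate pathway, whose genes are driven by the transcription factor SREBP2 when membrane sterol is low and are turned down when sterol is plentiful.

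The injured hippocampus differed from sham mainly by genes that were higher. There were 524 DEGs higher in TBI, 4.07% of the tested genes, and 47 lower, 0.365% of them. Among the 523 higher DEGs that did not follow Ttr (a group given apart at the end), the median log2 fold change was 1.4, 399 were changed by more than 2-fold and 121 by more than 4-fold. The 4 TBI samples lay above all 4 sham samples for 519 of these 523, against 9.13% of all tested genes. Decreases were smaller. The 47 lower DEGs had a median log2 fold change of −0.74, 13 of them were over 2-fold and 1 was over 4-fold. In the fits that left out 1 sample there were 375 to 530 higher and 21 to 46 lower DEGs, with 31, 25 and 23 lower without sham replicates 1, 2 and 4 and 21 and 25 without TBI replicates 1 and 4. For 45 of the 47 the TBI samples lay below every sham sample, which was so for 5.86% of all tested genes. The median log2 fold change over all tested genes was −0.031.

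**Figure D1:**
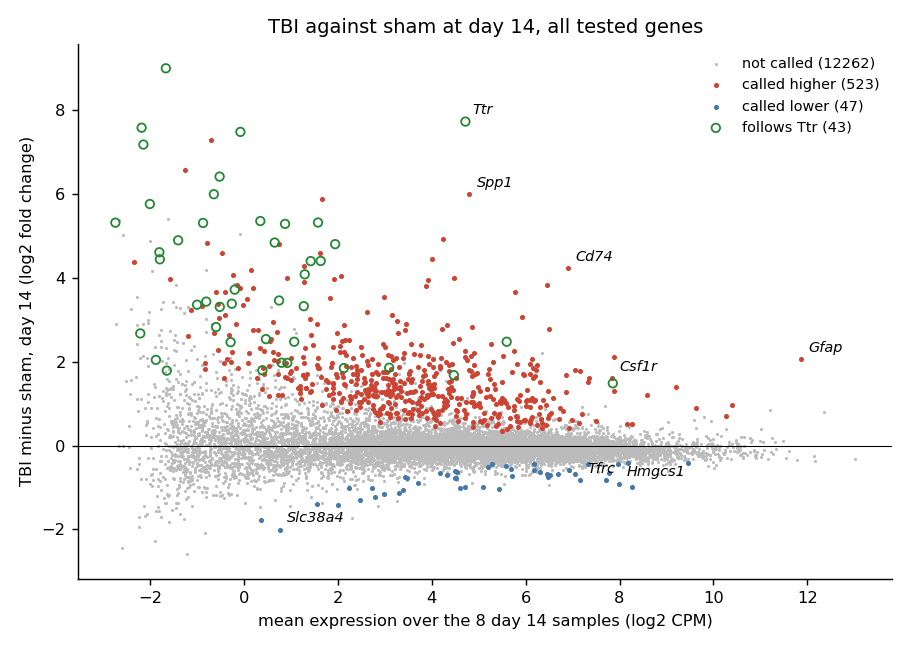
Each point is 1 of the 12875 tested genes, with the mean log2 CPM over the 8 day 14 samples on the x axis and the log2 fold change, TBI minus sham, on the y axis. The 523 higher DEGs (red) reach further from 0 than the 47 lower DEGs (blue), and the 43 genes that follow Ttr (green circles) lie among the largest differences, although only Ttr among them was called.

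The higher DEGs together took 1.20, 1.21, 1.17 and 1.39% of all counts in the sham samples and 3.32, 3.16, 2.70 and 3.99% in the TBI samples. Since the higher and lower DEGs were chosen in these same samples, the gap between groups in such shares was fixed in advance. Among the TBI samples replicate 4 stood highest. Most single genes had a like order. Replicate 4 was the highest of the 4 TBI samples for 406 of the 523 higher DEGs, and replicate 3 was the lowest for 303 and replicate 2 for 147. The lower DEGs took 0.521, 0.518, 0.493 and 0.544% of counts in sham and 0.326, 0.362, 0.346 and 0.344% in TBI. RNA was taken from bulk tissue, in which more cells of a type and more RNA per cell cannot be told apart, and this holds for every cell type list that follows.

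A pair of TBI libraries stood apart from the others by a different set of genes. Ttr, which encodes transthyretin and is the most abundant transcript of the choroid plexus, had 170, 24020, 141619 and 92 counts in TBI replicates 1 to 4 and 123 to 197 in the sham samples. The 32 tested choroid plexus genes summed to 262 to 386 CPM in the sham samples, 339 and 365 CPM in TBI replicates 1 and 4, and 2411 and 9688 CPM in replicates 2 and 3. Without replicates 2 and 3 there were 473 higher DEGs, of which 438 were among the 524, and 16 lower DEGs, of which 13 were among the 47. With the mean log2 CPM of the choroid plexus genes as a covariate there were 422 higher DEGs, of which 417 were among the 524, and 47 lower DEGs, of which 29 were among the 47. Of the genes named below, Srebf2, Insig1, Ftl1, Tacr3, Sstr1, Ccdc33 and Ttr were not called in that fit.

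Gene lists for cell types and pathways held 190 of the 571 DEGs, 172 higher and 18 lower. The plot of list members shows the log2 fold change of every tested member. MHC class II presentation had the highest median and cholesterol synthesis the lowest of the 42 lists. The counts given for lists stand against these shares of all tested genes. Of them 4.07% were called higher and 0.365% lower. All TBI samples lay above all sham samples in 9.13% and below them in 5.86%. An unadjusted p under 0.05 was reached by 1162 higher and 551 lower of the 12875 tested genes.

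**Figure D2:**
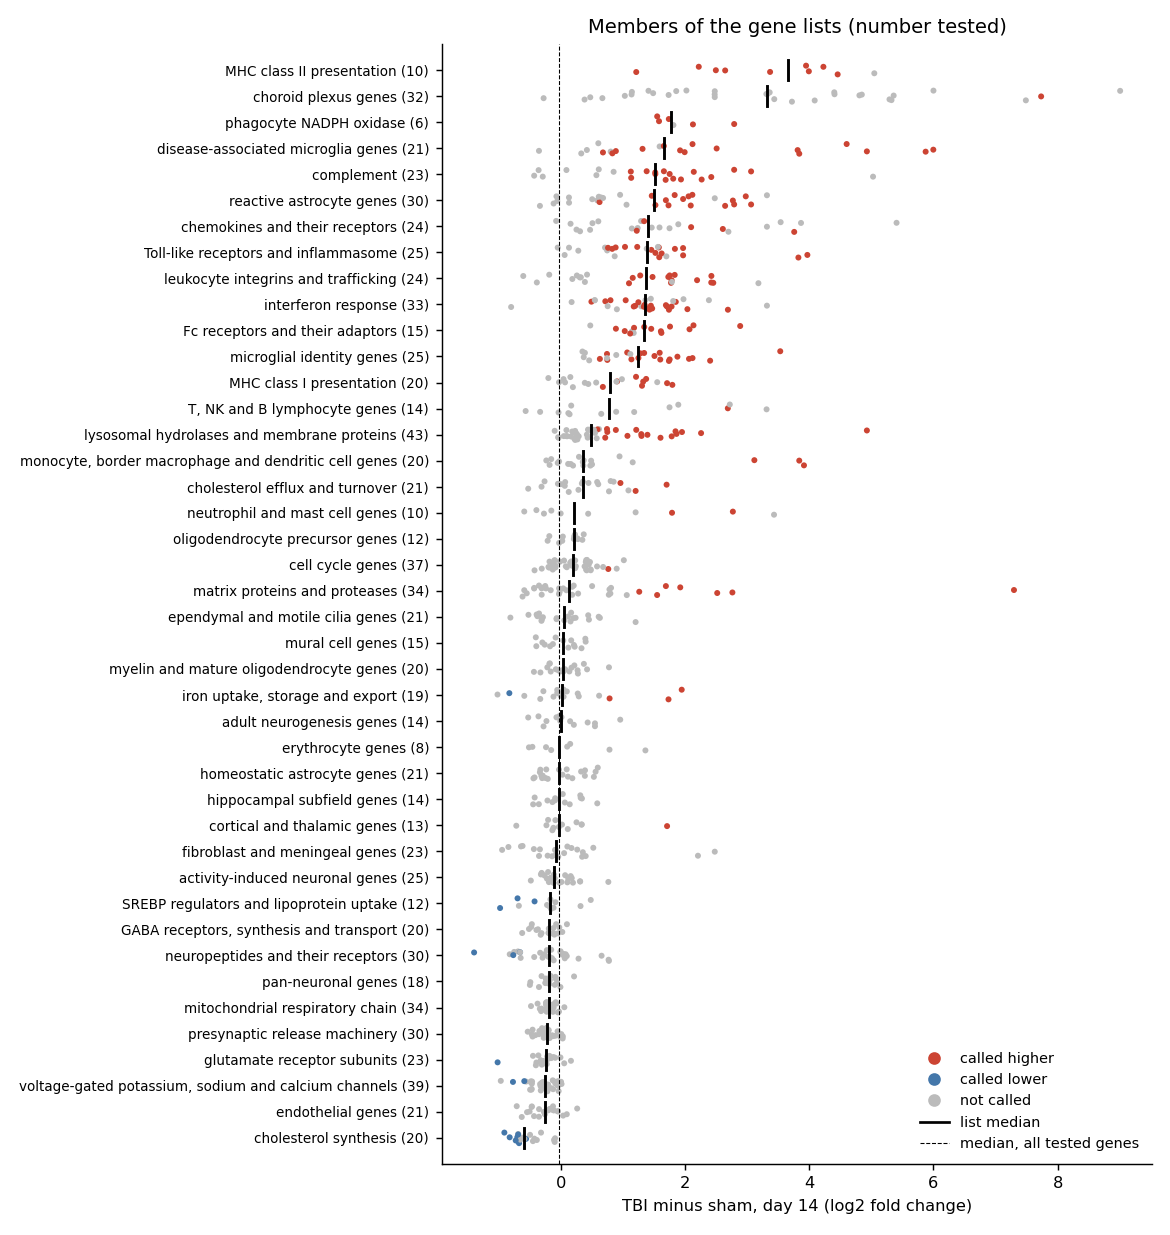
Points are the tested members of 42 gene lists (number tested in parentheses) by log2 fold change, TBI minus sham at day 14, red where called higher, blue where called lower and gray where not called. Black bars are list medians, from 3.66 for MHC class II presentation to −0.60 for cholesterol synthesis, and the dashed line is the median of all tested genes.

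Of 25 tested microglial identity genes, 18 were called higher, against 4.07% of all tested genes, and 0 lower. The median log2 fold change was 1.25 with all 25 above 0, against 44.1% of all tested genes. In 22 the TBI samples lay above every sham sample, against 9.13% of all tested genes. The summed level of the list was 636 to 812 CPM in sham and 1640, 1393, 1304 and 2139 CPM in TBI. Csf1r, the receptor for the growth factors on which microglia depend, had 147, 145, 159.9 and 177 CPM in sham and 498, 388, 371 and 655 in TBI, for a log2 fold change of 1.604 ± 0.19 (adjusted p = 0.000111). Spi1, the gene of the myeloid transcription factor PU.1, had 6.49, 5.77, 6.92 and 7.57 CPM in sham and 28.9, 19.98, 23.2 and 26.4 in TBI, for a log2 fold change of 1.88 ± 0.17 (adjusted p = 1.38e-05). Every TBI sample of Csf1r and Spi1 was above every sham sample. Irf8, which encodes a transcription factor that works with PU.1, had 7.67, 4.93, 5.46 and 6.48 CPM in sham and 33.6, 24.7, 25.99 and 45.7 in TBI, for a log2 fold change of 2.41 ± 0.23 (adjusted p = 1.52e-05). P2ry12, a receptor for extracellular ADP by which resting microglia sense damage, had 13.7, 15.5, 17.5 and 18.6 CPM in sham and 45.6, 37.4, 28.5 and 44.2 in TBI, for a log2 fold change of 1.25 ± 0.20 (adjusted p = 0.00129). Another purine receptor, P2ry6, which responds to UDP and promotes phagocytosis, changed by 1.74 ± 0.21 (adjusted p = 0.000104). Gpr183, a receptor for oxysterols that guides immune cells, had the largest change of the list, with 0.393, 0.721, 1.03 and 1.09 CPM in sham and 8.96, 9.26, 8.05 and 11.9 in TBI, for a log2 fold change of 3.53 ± 0.27 (adjusted p = 5.89e-06). Tmem119, a marker of homeostatic microglia that was singled out after its values were seen, did not pass the test. It had 19.01, 21.1, 16.6 and 29.6 CPM in sham and 29.5, 19.9, 19.5 and 42.8 in TBI, with overlapping groups, for a log2 fold change of 0.37 ± 0.31 (adjusted p = 0.748).

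Genes of the disease-associated state of microglia, first described around amyloid plaques, rose in 15 of 21 members with a median log2 fold change of 1.66. Spp1, the secreted protein osteopontin, had the largest increase of all DEGs that met the expression rule, with 2.29, 0.841, 1.19 and 1.14 CPM in sham and 72.6, 40.01, 51.2 and 183 in TBI, for a log2 fold change of 5.999 ± 0.49 (adjusted p = 7.78e-06). Clec7a, the beta-glucan receptor dectin-1, had 0.328, 0.2403, 0.2704 and 0.0544 CPM in sham and 13.3, 6.03, 8.099 and 25.4 in TBI, for a log2 fold change of 5.88 ± 0.57 (adjusted p = 1.96e-05). Lgals3, the sugar-binding protein galectin-3, had 1.83, 1.56, 2.38 and 2.395 CPM in sham and 35.8, 18.98, 16.5 and 44.7 in TBI, for a log2 fold change of 3.82 ± 0.37 (adjusted p = 1.96e-05). For all 3 genes replicate 4 was the highest TBI sample and no sham sample came near the TBI samples. Trem2, a lipid-sensing receptor named here after its values were seen, changed by 2.12 ± 0.28 (adjusted p = 0.000231), and Tyrobp, the adaptor through which TREM2 signals, by 1.996 ± 0.18 (adjusted p = 9.39e-06). Apoe, the lipid carrier that belongs to the same state and was also singled out after its values were seen, missed the threshold, with 4225, 4942, 4225 and 6129 CPM in sham and 8856, 8422, 6201 and 10630 in TBI. Its log2 fold change was 0.81 ± 0.22 (adjusted p = 0.0513), it passed without sham replicate 4 (0.93) or without TBI replicate 3 (0.95), and its groups did not overlap.

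Lysosomal genes were called in 1 direction only. Of 43 tested hydrolases and membrane proteins, 17 were called higher and 0 lower, and the median was 0.50. Cd68, a lysosomal glycoprotein of phagocytes, had 3.34, 3.73, 1.73 and 3.701 CPM in sham and 102, 65.4, 63.2 and 150.2 in TBI, for a log2 fold change of 4.93 ± 0.39 (adjusted p = 7.2e-06). Ctsz, the protease cathepsin Z, had 21.9, 21.3, 18.4 and 28.03 CPM in sham and 109.9, 95.1, 90.03 and 135 in TBI, for a log2 fold change of 2.26 ± 0.24 (adjusted p = 3.74e-05). Npc2, which binds cholesterol in the lysosome and hands it on for export, had 91.9, 103, 98.5 and 136 CPM in sham and 346, 325, 331 and 480.4 in TBI, for a log2 fold change of 1.79 ± 0.24 (adjusted p = 0.000314). None of these groups overlapped. Grn, the progranulin gene, changed by 1.61 ± 0.21 (adjusted p = 0.000267), and Laptm5, a lysosomal membrane protein of leukocytes, by 1.86 ± 0.21 (adjusted p = 6.08e-05).

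The list with the highest median was MHC class II presentation, the machinery by which peptides from ingested proteins are shown to CD4 T cells. Of 13 genes, 10 were tested and 9 were called higher, with a median log2 fold change of 3.66. Cd74, the invariant chain that guides class II molecules to the endosome, had 26.4, 17.5, 40.03 and 36.8 CPM in sham and 464, 530.1, 598 and 674 in TBI, for a log2 fold change of 4.23 ± 0.27 (adjusted p = 8.73e-07). The alpha chain RT1-Ba had 4.33, 2.46, 3.95 and 3.27 CPM in sham and 46.6, 89.2, 63.99 and 108 in TBI, for a log2 fold change of 4.46 ± 0.39 (adjusted p = 9.39e-06). For the alpha chain RT1-Da the values were 5.05, 3.31, 7.41 and 7.13 CPM in sham and 67.1, 96.7, 85.4 and 118 in TBI, for a log2 fold change of 3.995 ± 0.35 (adjusted p = 9.39e-06). Its partner, the beta chain RT1-Db1, had 3.998, 2.403, 4.98 and 4.95 CPM in sham and 42.9, 66.2, 65.6 and 78.8 in TBI, for a log2 fold change of 3.95 ± 0.35 (adjusted p = 9.57e-06). In these 4 genes the lowest TBI sample was above the highest sham sample, and among the TBI samples replicate 1 was the lowest and replicate 4 the highest. Ifi30, a reductase that opens disulfide bonds of antigens in the lysosome, changed by 2.22 ± 0.19 (adjusted p = 9.1e-06). RT1 genes lie in a family of near-identical copies, among which single-end reads may be split, so their separate values are less certain than their direction. The number of class II genes called stayed at 8 or 9 in all fits that left out 1 sample, and it was 8 without TBI replicates 2 and 3.

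Promoters of these class II genes are shown because the genes moved in 1 direction, with log2 fold changes of 1.22 to 5.05 over the 10 tested. RefSeq windows of build GRCr8, from 250 bases before the annotated start to 50 bases from it on, were found for 8 of the 9 called members. They were searched on both strands for CCAAT, the box bound by the factor NF-Y, a search on this list that was added after its values were seen. CCAAT was present in 7 of 8 (87.5%), against 37.7% of all 27457 windows and 36.9% of those of tested genes. It was also in the window of RT1-Bb, the 1 tested member that was not called. The 200 bases before the start follow for 3 classical class II chains on chromosome 20, written 5′ to 3′ along the gene, with CCAAT or its reverse complement ATTGG in capitals. Positions are RT1-Ba at chr20:4576857-4577056 (plus strand), RT1-Da at chr20:4515215-4515414 (plus strand) and RT1-Db1 at chr20:4560163-4560362 (minus strand), all in GRCr8.
RT1-Ba: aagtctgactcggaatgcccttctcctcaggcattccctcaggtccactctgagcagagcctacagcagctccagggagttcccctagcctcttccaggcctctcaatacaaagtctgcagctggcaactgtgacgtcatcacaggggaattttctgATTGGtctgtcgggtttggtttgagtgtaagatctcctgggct
RT1-Da: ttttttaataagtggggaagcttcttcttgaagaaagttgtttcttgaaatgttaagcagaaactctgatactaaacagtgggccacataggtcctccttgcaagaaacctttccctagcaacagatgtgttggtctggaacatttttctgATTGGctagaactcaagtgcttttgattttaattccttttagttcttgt
RT1-Db1: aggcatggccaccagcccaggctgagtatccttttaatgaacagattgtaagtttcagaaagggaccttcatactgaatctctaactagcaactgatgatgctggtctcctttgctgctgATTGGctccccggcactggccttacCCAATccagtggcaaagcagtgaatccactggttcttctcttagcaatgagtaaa
In each of them the box on the reverse strand lies close to the start, with its first base at −43 in RT1-Ba, −49 in RT1-Da and −80 in RT1-Db1. RT1-Db1 holds another on the forward strand at −55. A match describes the letters in the window and was not tested as a site of binding.

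Class I presentation, which shows peptides made inside the cell, had a lower median. Of 20 tested genes 8 were called higher and 0 lower, and the median was 0.79 against 3.66 for class II. B2m, the light chain shared by all class I molecules, had 378, 412, 392 and 529.5 CPM in sham and 792, 799, 663 and 961 in TBI, for a log2 fold change of 0.91 ± 0.17 (adjusted p = 0.00457). RT1-A2, a classical class I heavy chain, had 26.1, 25.3, 35.8 and 35.98 CPM in sham and 76.2, 107, 102 and 119.7 in TBI, for a log2 fold change of 1.71 ± 0.24 (adjusted p = 0.000424). Both genes were higher in all 4 TBI samples. Psmb8 and Psmb9 encode catalytic subunits of the immunoproteasome, and changed by 1.798 ± 0.24 (adjusted p = 0.000264) and 1.33 ± 0.19 (adjusted p = 0.000478). Psme1, a subunit of the proteasome activator, changed by 0.68 ± 0.13 (adjusted p = 0.00461). The number called fell to 5 without sham replicate 1, 2 or 3 or without TBI replicate 4.

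Interferon response genes had a median log2 fold change of 1.37, and 20 of 33 were called higher and 0 lower. Bst2, the tether of budding virions known as tetherin, had 7.28, 7.33, 6.33 and 6.97 CPM in sham and 21.1, 21.4, 21.6 and 27.3 in TBI, for a log2 fold change of 1.71 ± 0.31 (adjusted p = 0.00359). Oas2, a sensor of double-stranded RNA, had 0.197, 0.2403, 0.216 and 0.599 CPM in sham and 1.99, 2.17, 1.59 and 2.59 in TBI, for a log2 fold change of 2.69 ± 0.48 (adjusted p = 0.00264). Zbp1, a sensor of Z-form nucleic acids, was among the 15 largest increases, with 0.524, 0.2403, 0.162 and 0.218 CPM in sham and 4.51, 4.33, 3.18 and 9.03 in TBI, for a log2 fold change of 4.202 ± 0.51 (adjusted p = 0.000127). For all 3 every TBI sample lay above every sham sample. Ifi44, Ifitm3 and Parp9, which are induced by interferon, changed by 1.34 ± 0.21 (adjusted p = 0.00104), 1.45 ± 0.28 (adjusted p = 0.00461) and 1.35 ± 0.26 (adjusted p = 0.00523). The count of this list leaned on single libraries. It was 10 without sham replicate 2 or 3, 11 without sham replicate 4, 10 without TBI replicate 4 and 25 without TBI replicate 3, while the list's median lay between 1.07 and 1.59 in the fits without 1 sample.

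Complement genes, whose products tag debris and synapses for removal, rose in 15 of 23 members with a median log2 fold change of 1.52. C3, the component on which all routes of activation meet, had 53.4, 35.8, 49.1 and 55.4 CPM in sham and 388, 286, 244 and 423 in TBI, for a log2 fold change of 2.79 ± 0.21 (adjusted p = 5.55e-06). C1qa, a chain of the recognition molecule C1q, had 89.4, 98.7, 97.6 and 116 CPM in sham and 306, 276, 199 and 373 in TBI, for a log2 fold change of 1.52 ± 0.18 (adjusted p = 0.000125). Serping1, the inhibitor of C1 proteases, had 12.5, 11.5, 13.5 and 21.8 CPM in sham and 155, 94.2, 84.9 and 164 in TBI, for a log2 fold change of 3.07 ± 0.35 (adjusted p = 8.59e-05). In each the groups were apart, with replicate 3 the lowest TBI sample. C2, a protease of the classical route, changed by 2.14 ± 0.25 (adjusted p = 0.000107), and Itgb2, the beta chain of complement receptor 3, by 2.42 ± 0.26 (adjusted p = 5.31e-05).

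Receptors that recognize antibody, and the pathway below them, were also higher. Among 15 Fc receptor genes and adaptors, 12 were called, with a median of 1.35. Fcgr2b, the inhibitory receptor for IgG, had 4.46, 4.57, 7.14 and 7.24 CPM in sham and 36.9, 35.03, 32.6 and 69.6 in TBI, for a log2 fold change of 2.89 ± 0.27 (adjusted p = 1.38e-05). Fcer1g, the signaling chain of the activating receptors, had 20.2, 27.7, 24.7 and 24.8 CPM in sham and 112, 87.8, 92.4 and 118 in TBI, for a log2 fold change of 2.07 ± 0.23 (adjusted p = 6.51e-05). Both inhibitory and activating members were thus above sham in every TBI sample. The exchange factor Vav1 and the adaptor Lcp2 changed by 2.14 ± 0.25 (adjusted p = 8.49e-05) and 1.35 ± 0.17 (adjusted p = 0.00017).

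The phagocyte NADPH oxidase makes superoxide from a membrane cytochrome and cytosolic subunits. Of its 6 tested genes 5 were called higher, with a median of 1.78. Ncf1, the organizer subunit, had 8.98, 8.71, 7.03 and 8.55 CPM in sham and 57.8, 50.03, 52.4 and 70.4 in TBI, for a log2 fold change of 2.79 ± 0.17 (adjusted p = 7.78e-07). Cyba, a chain of the cytochrome, had 8.26, 7.93, 5.896 and 8.11 CPM in sham and 24.5, 23.1, 20.7 and 32.6 in TBI, for a log2 fold change of 1.74 ± 0.20 (adjusted p = 8.99e-05). Rac2, the GTPase that switches the complex on, changed by 2.13 ± 0.24 (adjusted p = 6.11e-05), and the subunit Ncf4 by 1.55 ± 0.29 (adjusted p = 0.00379). The count was 5 in every fit that left out 1 sample.

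Toll-like receptors and the inflammasome rose in 15 of 25 genes, with a median of 1.39. Nlrp3, the sensor of the inflammasome, had 4.98, 3.605, 4.33 and 4.68 CPM in sham and 13.1, 12.1, 8.55 and 20.6 in TBI, for a log2 fold change of 1.63 ± 0.24 (adjusted p = 0.000646). Il18, a cytokine that the inflammasome activates, had 7.28, 7.93, 5.79 and 8.06 CPM in sham and 16.6, 15.2, 11.5 and 16.3 in TBI, for a log2 fold change of 1.04 ± 0.17 (adjusted p = 0.00112). Values did not overlap for either gene, and the change of Il18 was the smaller. Pycard, the adaptor of the complex, Casp4, a caspase that detects bacterial lipopolysaccharide, and Ly86, a partner of a Toll-like receptor homolog, changed by 1.53 ± 0.22 (adjusted p = 0.000459), 1.59 ± 0.20 (adjusted p = 0.000201) and 1.84 ± 0.22 (adjusted p = 0.000107).

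Genes of leukocyte adhesion and movement were called in 13 of 24, with a median of 1.38, and the count was 13 in every fit that left out 1 sample. Ptprc, the phosphatase CD45 that is found on all leukocytes and on microglia, had 6.42, 6.43, 6.54 and 10.2 CPM in sham and 41.1, 33.4, 28.1 and 60.5 in TBI, for a log2 fold change of 2.46 ± 0.25 (adjusted p = 2.82e-05). The tetraspanins Cd37 and Cd53 and the exchange factor Dock8 changed by 2.196 ± 0.26 (adjusted p = 0.00012), 1.79 ± 0.22 (adjusted p = 0.000122) and 1.78 ± 0.22 (adjusted p = 0.000126). Only 5 of 24 chemokine and chemokine receptor genes were called, although their median was 1.41. Ccl3, a chemokine of activated myeloid cells, had 0.131, 0.2403, 0.162 and 0.163 CPM in sham and 2.79, 1.88, 2.48 and 2.64 in TBI, for a log2 fold change of 3.76 ± 0.52 (adjusted p = 0.000324). Cxcl16, which exists as a membrane-bound chemokine, had 7.603, 5.35, 6.71 and 5.93 CPM in sham and 24.3, 19.04, 27.8 and 38.5 in TBI, for a log2 fold change of 2.1 ± 0.38 (adjusted p = 0.00356). Cx3cr1, the microglial receptor for the neuronal chemokine fractalkine, changed by 1.34 ± 0.26 (adjusted p = 0.00601).

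Markers of blood-borne leukocytes were looked at beside these lists. Of 32 lymphocyte genes 29 were listed, 14 had enough counts to be tested and 1 was at 0 in every day 14 sample. Of the 14, 1 was called higher with all samples and 2 without sham replicate 4. This was Cd4, the coreceptor of helper T cells, with 6.95, 7.21, 5.57 and 6.37 CPM in sham and 43.2, 24.2, 32.5 and 68.5 in TBI, for a log2 fold change of 2.69 ± 0.33 (adjusted p = 0.000127). Cd4 is also transcribed by rat macrophages. The lymphocyte list summed to 22.5 to 36.8 CPM in sham and 50.7 to 94.7 CPM in TBI. Cd4 accounted for most of that difference in summed CPM. Among 20 monocyte, border macrophage and dendritic cell genes 3 were called. Siglec1, the macrophage receptor sialoadhesin, had 1.38, 0.541, 0.433 and 0.381 CPM in sham and 11.3, 4.101, 5.96 and 19.4 in TBI, for a log2 fold change of 3.92 ± 0.73 (adjusted p = 0.00431). Batf3, a transcription factor of dendritic cells, had 0.197, 0.3605, 0.433 and 0.109 CPM in sham and 2.52, 2.64, 1.99 and 2.64 in TBI, for a log2 fold change of 3.12 ± 0.46 (adjusted p = 0.000637). Gpnmb, a glycoprotein of lipid-laden phagocytes, had 13.8, 16.5, 15.5 and 16.9 CPM in sham and 214, 129.5, 139 and 418 in TBI, for a log2 fold change of 3.84 ± 0.39 (adjusted p = 2.97e-05). This list summed to 232 to 303 CPM in sham and 444 to 836 CPM in TBI, and Gpnmb accounted for much of that difference in summed CPM. Of 10 neutrophil and mast cell genes, Csf3r and Lcn2 were called, with changes of 1.79 ± 0.30 (adjusted p = 0.00182) and 2.77 ± 0.47 (adjusted p = 0.002). The median of the 10 was 0.22, with 5 above 0 and 4 below. Their sum was 167 to 212 CPM in sham and 158 to 180 CPM in TBI, so it was not raised. Lcn2 is also a reactive astrocyte gene, and its order among the TBI samples was unlike that of most, with 0.983, 0.961, 0.379 and 1.31 CPM in sham and 6.302, 5.39, 10.2 and 2.904 in TBI, highest in replicate 3 and lowest in replicate 4. The part of blood-borne cells in the other lists was not tested.

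The lists of reactive and of homeostatic astrocyte genes differed in their medians. Reactive astrocyte genes were called higher in 15 of 30, with a median log2 fold change of 1.5, and the summed level of the list was 1685 to 2261 CPM in sham and 5460 to 8715 CPM in TBI. Gfap, the filament protein named above, accounted for most of that sum of CPM, with 1450, 1443, 1258 and 1786 CPM in sham and 6486, 7031, 4259 and 6966 in TBI, for a log2 fold change of 2.06 ± 0.23 (adjusted p = 7.26e-05). Its lowest TBI sample was replicate 3, far above every sham sample. Aspg, an asparaginase, had 3.47, 2.46, 2.27 and 4.899 CPM in sham and 29.1, 23.3, 19.9 and 31.4 in TBI, for a log2 fold change of 2.98 ± 0.33 (adjusted p = 6.08e-05). Cp, the copper-carrying ferroxidase ceruloplasmin, had 12.7, 10.9, 12.6 and 15.8 CPM in sham and 57.05, 29.9, 30.1 and 56.2 in TBI, for a log2 fold change of 1.74 ± 0.27 (adjusted p = 0.000897). In contrast, 0 of 21 homeostatic astrocyte genes were called in either direction by edgeR, and their median was −0.026. An unadjusted p under 0.05 was reached by 5 higher and 2 lower, against 1162 higher and 551 lower of all 12875 tested genes. Glul, which encodes the glutamine synthetase that clears glutamate, had 1196, 1045, 1181 and 1227 CPM in sham and 1252, 1317, 1181 and 1546 in TBI, with overlapping groups. In the fit of the 8 day 14 samples alone, 4 of the homeostatic genes were called higher, as were 7.38% of all genes, 1 was called by DESeq2 and 0 by limma-voom.

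Matrix genes were called in 7 of 34, against a list median of 0.14, close to 0. Beside Plaur and Mmp2 they were the following. Plau, the urokinase that activates plasminogen, had 1.77, 2.16, 0.919 and 1.74 CPM in sham and 6.501, 7.03, 7.95 and 16.3 in TBI, for a log2 fold change of 2.52 ± 0.33 (adjusted p = 0.000234). Timp1, an inhibitor of metalloproteinases, had 2.82, 2.52, 2.65 and 4.03 CPM in sham and 12.4, 6.796, 7.403 and 12.5 in TBI, for a log2 fold change of 1.69 ± 0.31 (adjusted p = 0.00389). Tgfb1, a growth factor that induces matrix, had 14.8, 14.5, 13.1 and 17.96 CPM in sham and 55.5, 42.8, 51.9 and 78.9 in TBI, for a log2 fold change of 1.93 ± 0.22 (adjusted p = 8.59e-05). None of the groups overlapped. Mmp19, another metalloproteinase, changed by 1.27 ± 0.22 (adjusted p = 0.00271). Mmp12, the macrophage elastase, which was singled out after its values were seen, had no counts in any sham sample and 0.398, 0.527, 0.0994 and 3.01 CPM in TBI, and was at least 5.74-fold higher against a floor of 3 counts in each sham library. That bound rests on TBI replicate 4 and is 1.95-fold without it. Its call was lost in each fit that left out a sham sample and with limma-voom. The number of matrix genes called was 4 without sham replicate 3.

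Cholesterol synthesis went the other way. All 20 genes of the pathway had a log2 fold change below 0, as did 55.8% of all tested genes, and the median was −0.60. The decrease was called for 8 of the 20, against 0.365% of all tested genes, and the increase for 0. In 14 of the 20 every TBI sample lay below every sham sample, against 5.86% of all tested genes. Summed over the pathway, the level was 1463 to 1650 CPM in sham and 885, 1001, 1006 and 1054 CPM in TBI. The called genes described next lie at the start of the mevalonate pathway, at its branch to sterols, and among the later steps.

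**Figure D3:**
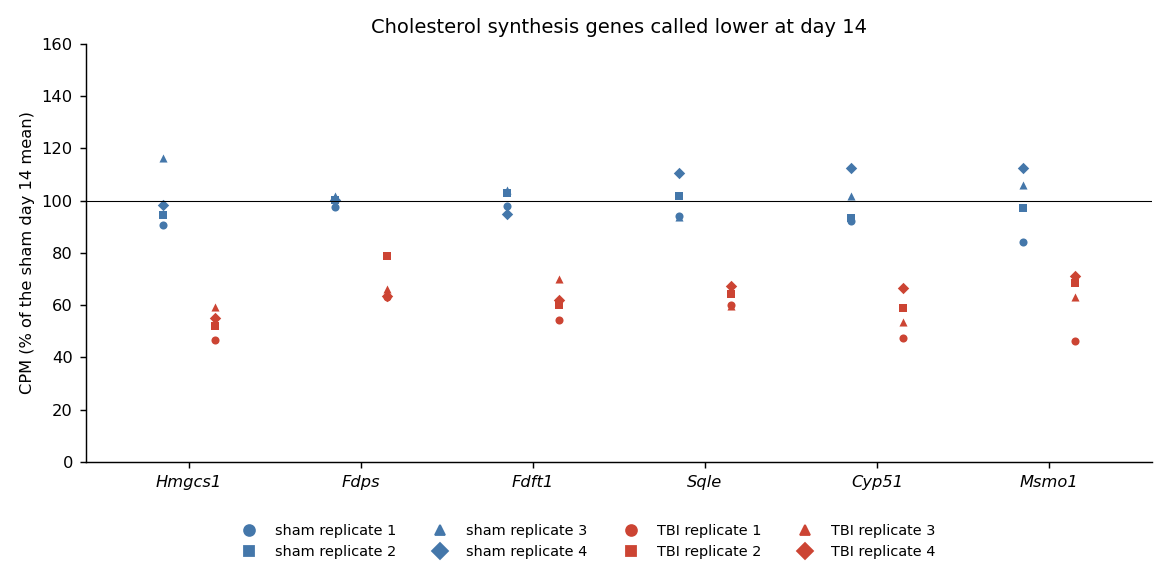
CPM of 6 cholesterol synthesis genes called lower, in each day 14 sample, as a percentage of the sham mean of the gene, in the order of the pathway. Blue symbols are sham and red symbols TBI, with 1 symbol shape per replicate number and a line at 100%, and for all 6 genes the 4 TBI samples lie below the 4 sham samples.

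Hmgcs1, the synthase that makes HMG-CoA, had 254, 264, 325 and 274 CPM in sham and 129.9, 146, 166 and 154 in TBI, for a log2 fold change of −0.91 ± 0.15 (adjusted p = 0.00194). This step was below sham in all 4 TBI samples. Fdps, which makes farnesyl diphosphate, had 54.5, 56.2, 56.96 and 56.1 CPM in sham and 35.4, 44.2, 37.1 and 35.5 in TBI, for a log2 fold change of −0.56 ± 0.12 (adjusted p = 0.013). Fdft1, the squalene synthase that commits farnesyl diphosphate to sterols, had 114, 119.9, 121 and 110.3 CPM in sham and 63.2, 70.1, 81.5 and 72.1 in TBI, for a log2 fold change of −0.698 ± 0.11 (adjusted p = 0.00146). Sqle, which oxidizes squalene, had 108, 117, 108 and 127 CPM in sham and 69.2, 74.05, 68.5 and 77.2 in TBI, for a log2 fold change of −0.67 ± 0.11 (adjusted p = 0.00185). Groups did not overlap for these 3 enzymes either. Of the later steps, Cyp51, the lanosterol demethylase, had 208, 212, 231 and 254 CPM in sham and 107, 134, 121 and 151 in TBI, for a log2 fold change of −0.82 ± 0.16 (adjusted p = 0.00483). Msmo1, a methylsterol oxidase, had 127, 147, 160.1 and 169.5 CPM in sham and 69.8, 103, 95.2 and 107 in TBI, for a log2 fold change of −0.68 ± 0.15 (adjusted p = 0.0123). TBI samples of both lay below every sham sample.

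The number of cholesterol synthesis genes called was 6 to 9 in the fits that left out 1 sample. It was 4 without TBI replicates 2 and 3, with the list's median at −0.62 and with Cyp51 (−0.79) and Msmo1 (−0.75) among those no longer called, and 12 with the 8 day 14 samples alone, a fit that called 1.68% of all genes lower. Among the genes named here, calls were lost for Msmo1 without sham replicate 4 (−0.62) and for Fdps without TBI replicate 1 or 4 (−0.52 each).

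SREBP2 and its partners control these genes, and 3 of 12 tested regulators and lipoprotein uptake genes were called lower. Srebf2, which encodes SREBP2, had 414, 418, 396 and 433 CPM in sham and 302, 321, 295 and 323 in TBI, for a log2 fold change of −0.42 ± 0.11 (adjusted p = 0.0457). Insig1, the sterol-sensing anchor that holds SREBP2 in the endoplasmic reticulum, had 23.99, 26.4, 32.6 and 27.6 CPM in sham and 12.9, 15.9, 18.4 and 21.1 in TBI, for a log2 fold change of −0.69 ± 0.19 (adjusted p = 0.0479). TBI samples of both lay below every sham sample. The call for Srebf2 was lost in each of the 8 fits that left out 1 sample, with changes of −0.38 to −0.44. That for Insig1 was lost in 7 of them, all but the one without TBI replicate 4, with changes of −0.58 to −0.76. The number called in this list was 1 without sham replicate 1, 2 or 3 or TBI replicate 1 or 2. Without both TBI replicates 2 and 3 none of the 3 passed, at −0.39 for Srebf2 and −0.67 for Insig1.

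Promoter windows in GRCr8 were found for 6 of the 11 called genes of cholesterol synthesis and its regulators, namely Cyp51, Fdps, Hmgcs1, Insig1, Msmo1 and Srebf2. CCAAT was present in 5 of 6 (83.3%), and in 13 of 19 windows (68.4%) of the tested members that were not called. The GC box GGGCGG was present in 6 of 6, and in 15 of 19 windows (78.9%) of the members not called. It was in 34.9% of all windows and 60.1% of those of tested genes. The sterol regulatory element core TCACNCCAC was found in 0 of 6, which says only that these letters are not in the window, and in 1.13% of all windows. The 200 bases before the start are shown for 3 enzymes whose fall was called, with CCAAT or ATTGG in capitals, Hmgcs1 at chr2:53382104-53382303 (plus strand), Fdps at chr2:176804817-176805016 (minus strand) and Msmo1 at chr16:29746913-29747112 (plus strand).
Hmgcs1: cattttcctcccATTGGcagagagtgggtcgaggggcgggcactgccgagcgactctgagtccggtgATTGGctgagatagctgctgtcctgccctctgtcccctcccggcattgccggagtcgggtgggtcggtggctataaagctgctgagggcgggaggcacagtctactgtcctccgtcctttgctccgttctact
Fdps: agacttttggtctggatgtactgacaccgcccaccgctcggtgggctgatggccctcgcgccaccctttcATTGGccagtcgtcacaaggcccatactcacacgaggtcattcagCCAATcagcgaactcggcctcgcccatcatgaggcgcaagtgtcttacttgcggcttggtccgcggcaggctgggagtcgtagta
Msmo1: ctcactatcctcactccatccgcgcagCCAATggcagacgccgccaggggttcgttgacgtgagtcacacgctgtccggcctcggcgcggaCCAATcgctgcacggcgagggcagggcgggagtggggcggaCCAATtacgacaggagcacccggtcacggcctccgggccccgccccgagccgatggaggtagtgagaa
Boxes begin at −188 and −133 in Hmgcs1, at −130 and −85 in Fdps, and at −173, −109 and −68 in Msmo1. The same box thus stands before genes that fell and before the class II genes that rose. For the 18 called microglial identity genes 10 windows were found, and the PU.1 core GAGGAAGT was in 0 of them and in 2.44% of all windows. In the windows of called genes, matches of different motifs shared bases in 1 case.

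Genes that move cholesterol out of cells or store it were called higher in 3 of 21, with a median of 0.36. Abca1, the transporter that loads cholesterol onto apolipoproteins, had 48.6, 43.3, 54.8 and 47.8 CPM in sham and 122, 81.8, 76.3 and 169 in TBI, for a log2 fold change of 1.21 ± 0.21 (adjusted p = 0.0025). Ch25h, which makes an oxysterol that blocks SREBP processing, had 2.88, 2.58, 1.41 and 1.36 CPM in sham and 8.16, 6.21, 4.37 and 8.02 in TBI, for a log2 fold change of 1.71 ± 0.31 (adjusted p = 0.00382). Plin2, a coat protein of lipid droplets, had 10.8, 8.11, 9.03 and 10.2 CPM in sham and 22.2, 14.8, 12.9 and 24.5 in TBI, for a log2 fold change of 0.96 ± 0.20 (adjusted p = 0.0094). All 3 were highest in TBI replicates 1 and 4 and lowest in replicate 3.

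Iron genes were called in both directions. Of 19 tested, 3 were called higher and 1 lower. Tfrc, the receptor that brings transferrin-bound iron into cells, had 249, 223, 180.3 and 251 CPM in sham and 107, 148, 108 and 146 in TBI, for a log2 fold change of −0.83 ± 0.14 (adjusted p = 0.0025). Hmox1, the heme oxygenase that frees iron from heme, had 6.36, 7.33, 6.71 and 6.91 CPM in sham and 30.5, 23.4, 22.9 and 28.7 in TBI, for a log2 fold change of 1.95 ± 0.25 (adjusted p = 0.000187). Ftl1, the light chain of the iron store ferritin, had 20.9, 15.7, 14.01 and 13.8 CPM in sham and 23.3, 32.8, 24.2 and 30.7 in TBI, for a log2 fold change of 0.79 ± 0.19 (adjusted p = 0.0292). The uptake receptor was below sham in all 4 TBI samples, and Hmox1 and Ftl1 were above it. The call for Ftl1 was lost in 5 of 8 fits without 1 sample (sham replicates 2, 3 and 4, TBI replicates 2 and 4), with changes of 0.70 to 0.78. Ferritin genes have near-identical copies among which reads may be split, so the value of Ftl1 is less certain. Ceruloplasmin, given with the astrocyte genes, was the remaining called member.

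Neuronal genes were mostly slightly below sham, and few were called. Among 18 pan-neuronal genes 0 were called and 17 were below 0, against 55.8% of all tested genes, with a median of −0.19. Among 30 genes of presynaptic release 0 were called and 27 were below 0, with a median of −0.22. In 3 genes of each list every TBI sample lay below every sham sample, against 5.86% of all tested genes. The opposite held for 0 of them. At an unadjusted p under 0.05, 2 pan-neuronal and 3 presynaptic genes were lower, against 551 of all 12875 tested genes. By limma-voom and by DESeq2 the counts were 0 for both lists, and with the 8 day 14 samples alone 3 presynaptic genes were called lower. Pan-neuronal genes summed to 10890 to 14230 CPM in sham and 9461 to 11420 CPM in TBI, so the groups overlapped. Snap25, a fusion protein of synaptic vesicles, had 2137, 2249, 2551 and 1720 CPM in sham and 1764, 1407, 2281 and 1545 in TBI, and Slc17a7, the vesicular glutamate transporter of pyramidal and granule cells, had 1962, 2427, 2402 and 2369 CPM in sham and 2138, 1994, 2037 and 2200 in TBI. Glutamate receptor subunits were below 0 in 21 of 23. In 8 of the 23 every TBI sample lay below every sham sample, and in 0 above. Grin1, the obligatory subunit of NMDA receptors, had 1449, 1520, 1203 and 1525 CPM in sham and 1288, 1240, 1085 and 1155 in TBI, for a log2 fold change of −0.26 ± 0.12 (adjusted p = 0.396). The called subunit, Grin3a, which lowers the calcium permeability of NMDA receptors, had 9.63, 10.8, 11.4 and 10.7 CPM in sham and 4.11, 4.101, 5.17 and 7.55 in TBI, for a log2 fold change of −1.02 ± 0.21 (adjusted p = 0.00975). Of 20 GABA genes 0 were called by edgeR and 18 were below 0. The TBI samples lay below every sham sample in 5 of them and above in 0. An unadjusted p under 0.05 was reached by 4, all lower, DESeq2 called 2 lower, limma-voom 0, and edgeR 1 without sham replicate 1. Of 34 respiratory chain genes 0 were called by edgeR and 33 were below 0, with a median of −0.20, and 7 had an unadjusted p under 0.05, all lower. DESeq2 called 3 of them lower and limma-voom 0.

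Voltage-gated channels held a pair of lower DEGs among 39 genes, and 37 were below 0. In 11 of the 39 every TBI sample lay below every sham sample, against 5.86% of all tested genes, and in 0 above. DESeq2 called 4 of them lower and limma-voom 3. The fit of the 8 day 14 samples alone called 7 lower, as it did 1.68% of all genes. Cacna1i, the pore of a T-type calcium channel, had 212, 201, 218 and 219 CPM in sham and 158, 129.6, 143 and 136 in TBI, for a log2 fold change of −0.59 ± 0.12 (adjusted p = 0.00745). Dpp10, which modulates A-type potassium channels, had 23.4, 23.01, 34.02 and 36.7 CPM in sham and 19.3, 15, 16.6 and 17.9 in TBI, for a log2 fold change of −0.77 ± 0.16 (adjusted p = 0.00938). Without TBI replicates 2 and 3, Grin3a (−0.83), Cacna1i (−0.51) and Dpp10 (−0.63) were below sham and were not called. Of 30 neuropeptide and receptor genes 3 were called lower, and the TBI samples lay below every sham sample in 7 and above in 3. Adra2a, an inhibitory receptor for noradrenaline, had 15.4, 12.4, 14.8 and 18.4 CPM in sham and 8.49, 8.73, 8.74 and 9.98 in TBI, and Sstr1, a somatostatin receptor, had 17.5, 22.5, 19.7 and 28.1 CPM in sham and 11.2, 15.9, 14.7 and 14.1 in TBI. Their log2 fold changes were −0.76 ± 0.17 (adjusted p = 0.0119) and −0.65 ± 0.17 (adjusted p = 0.046). The call for Sstr1 was lost in every fit without 1 sample but that without sham replicate 1 (−0.51 to −0.72) and with limma-voom, and that for Adra2a without sham replicate 4 (−0.66). Without TBI replicates 2 and 3 neither was called, at −0.70 for Adra2a and −0.77 for Sstr1. The calls in this list rested on single libraries, with 0 left without sham replicate 4 and 1 left without sham replicate 2 or TBI replicate 1 or 4. Activity-induced genes were called in 0 of 25 by edgeR and limma-voom and in 1 by DESeq2, with 1 at an unadjusted p under 0.05 and 1 called higher by edgeR without TBI replicate 3. Hippocampal subfield genes were called in 0 of 14 by edgeR, limma-voom and DESeq2, with 1 lower at an unadjusted p under 0.05.

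Among cortical and thalamic genes, a check on the dissection, 1 of 13 was called. This was Prkcd, a protein kinase C isoform, with 18.9, 14.4, 11.9 and 18.6 CPM in sham and 57.3, 50.3, 42.5 and 58.9 in TBI, for a log2 fold change of 1.71 ± 0.23 (adjusted p = 0.000264), and it is also transcribed by myeloid cells. The list as a whole summed to 254 to 356 CPM in sham and 270 to 337 CPM in TBI. Hippocampal subfield genes summed to 1611 to 1855 CPM in sham and 1660 to 1948 CPM in TBI, so the tissue carried its defining markers in every sample.

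Lists of other cell types, erythrocytes among them, showed few DEGs. By edgeR 0 genes were called in either direction among 20 myelin genes, 12 oligodendrocyte precursor genes, 14 neurogenesis genes, 21 endothelial genes, 15 mural cell genes, 23 fibroblast and meningeal genes, 21 ependymal genes and 8 erythrocyte genes. Of these 134 genes 8 higher and 6 lower had an unadjusted p under 0.05, against 1162 higher and 551 lower of all 12875 tested genes. DESeq2 called 1 higher and 2 lower, and limma-voom called 0. The fit of the 8 day 14 samples alone called 6 higher and 3 lower. Leaving out 1 sample gave 1 neurogenesis gene without TBI replicate 2 and 1 lower fibroblast gene without sham replicate 3. Medians ran from −0.25 in endothelial to 0.22 in precursor genes. Mbp, the myelin basic protein gene, had 13430, 13240, 8234 and 16280 CPM in sham and 9579, 13370, 6345 and 11540 in TBI, with overlapping groups. Of 37 cell cycle genes 1 was called, Aurka, a mitotic kinase, with 5.899, 6.79, 6.98 and 5.55 CPM in sham and 10.8, 11.5, 9.89 and 10.8 in TBI. Its log2 fold change was 0.77 ± 0.16 (adjusted p = 0.00745), and without TBI replicates 2 and 3 it was 0.79 and was not called.

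Ranked by size, the 15 largest increases were Spp1, Clec7a, Cd68, F10, Lilrb4, RT1-Ba, Clec12a, Cd74, Zbp1, St14, Msr1, RT1-Da, Kcnn4, RT1-Db1 and Siglec1, and 6 of them have not been described above. F10, the gene of coagulation factor X, had 0.197, 0.3605, 0.379 and 0.4899 CPM in sham and 11.7, 8.61, 5.07 and 16.2 in TBI, for a log2 fold change of 4.82 ± 0.47 (adjusted p = 1.96e-05). Lilrb4, an inhibitory receptor of myeloid cells, had 0.328, 0.1802, 0 and 0.381 CPM in sham and 7.36, 2.05, 2.38 and 10.1 in TBI, for a log2 fold change of 4.604 ± 0.65 (adjusted p = 0.000446). Clec12a, an inhibitory lectin that senses dead cells, had 0.197, 0.3004, 0.325 and 0.544 CPM in sham and 6.43, 6.68, 4.77 and 9.55 in TBI, for a log2 fold change of 4.28 ± 0.38 (adjusted p = 1.01e-05). St14, the membrane protease matriptase, had 0.852, 1.02, 1.08 and 1.14 CPM in sham and 17.1, 14.7, 10.9 and 26.1 in TBI, and Kcnn4, a calcium-activated potassium channel of microglia and leukocytes, had 0.5899, 0.601, 0.379 and 0.599 CPM in sham and 6.63, 7.21, 6.51 and 14.2 in TBI. Their log2 fold changes were 4.06 ± 0.35 (adjusted p = 9.1e-06) and 3.99 ± 0.41 (adjusted p = 3.15e-05). In sham these genes were at or below 1.14 CPM in every sample, and TBI replicate 4 was the highest in each. Msr1, a scavenger receptor, had 0, 3, 2 and 2 counts in sham and 18, 8, 22 and 77 in TBI, a ratio of 17.2 with an exact 95% interval of 8.12 to 43.8 that covers counting error only. Without TBI replicate 4, which holds 77 of the TBI counts, the ratio was 9.02 (4.06 to 23.6). It was called by edgeR (adjusted p = 0.00461) and not by limma-voom.

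**Figure D4:**
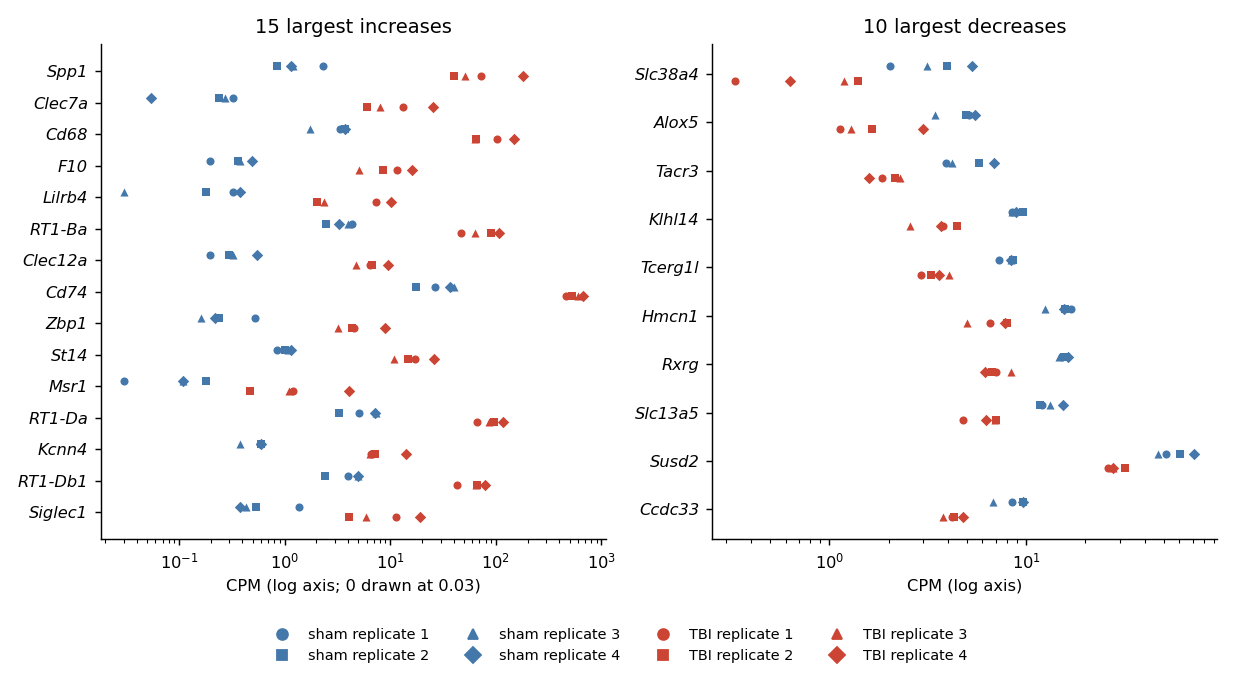
CPM on a log axis in each day 14 sample for the 15 largest increases (left, zero counts drawn at 0.03 CPM) and the 10 largest decreases (right) of the DEGs whose mean log2 CPM was over 0, whose groups did not overlap and which did not follow Ttr. Blue is sham and red is TBI, with 1 symbol shape per replicate number, and replicate 4 (diamonds) is the highest TBI sample of all 15 increases.

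The 10 largest decreases came from genes of different roles. Slc38a4, a transporter of neutral and cationic amino acids, had 2.03, 3.96, 3.14 and 5.33 CPM in sham and 0.332, 1.41, 1.19 and 0.633 in TBI, and Alox5, the lipoxygenase that begins leukotriene synthesis, had 5.11, 4.93, 3.46 and 5.498 CPM in sham and 1.13, 1.64, 1.29 and 3.01 in TBI. Tacr3, the receptor for neurokinin B, had 3.93, 5.77, 4.22 and 6.86 CPM in sham and 1.86, 2.17, 2.29 and 1.58 in TBI. TBI samples of these 3 lay below every sham sample, although at a few CPM. Their log2 fold changes were −2.004 ± 0.40 (adjusted p = 0.00648) for Slc38a4, −1.41 ± 0.29 (adjusted p = 0.00791) for Alox5 and −1.39 ± 0.31 (adjusted p = 0.015) for Tacr3. Klhl14, a kelch-like protein, had 8.46, 9.61, 8.44 and 8.87 CPM in sham and 3.78, 4.45, 2.58 and 3.69 in TBI, for a log2 fold change of −1.29 ± 0.27 (adjusted p = 0.00997). Hmcn1, the matrix protein hemicentin, had 16.9, 15.8, 12.5 and 15.5 CPM in sham and 6.57, 7.97, 5.02 and 7.81 in TBI, for a log2 fold change of −1.15 ± 0.22 (adjusted p = 0.00508). Rxrg, a retinoid X receptor, had 15.2, 15.6, 14.6 and 16.3 CPM in sham and 7.03, 6.74, 8.35 and 6.18 in TBI, for a log2 fold change of −1.12 ± 0.27 (adjusted p = 0.0271). Slc13a5, a transporter that brings citrate into cells, had 11.99, 11.7, 13.2 and 15.5 CPM in sham and 4.78, 7.03, 6.96 and 6.23 in TBI, for a log2 fold change of −1.07 ± 0.28 (adjusted p = 0.04). Susd2, a membrane protein with a sushi domain, had 51.4, 60.4, 46.95 and 71.6 CPM in sham and 25.9, 31.8, 27.5 and 27.5 in TBI, for a log2 fold change of −1.03 ± 0.19 (adjusted p = 0.00366). Tcerg1l and Ccdc33 changed by −1.22 ± 0.24 (adjusted p = 0.00628) and −1.02 ± 0.25 (adjusted p = 0.0292). Leaving out 1 sample at a time, the call was lost for Slc13a5 in all 8 fits (−0.96 to −1.13) and for Tacr3 in 4 (without sham replicate 2 or 4 or TBI replicate 1 or 4, −1.23 to −1.37). For Rxrg it was lost in every fit but that without TBI replicate 3, and for Ccdc33 in every fit but that without sham replicate 3, with changes of −1.06 to −1.15 and −0.95 to −1.08. Without both TBI replicates 2 and 3, Slc38a4 (−2.85), Tcerg1l (−1.29) and Susd2 (−1.09) were still called, and Alox5 (−1.15), Klhl14 (−1.22), Hmcn1 (−1.05) and the 4 genes with unsteady calls were below sham and not called.

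Genes that follow Ttr were set apart by rule. A gene follows it when its log2 CPM in each of TBI replicates 2 and 3 is at least 1 above the highest of the other 6 day 14 samples. There were 43 such genes, and 21 of them were among the 32 tested choroid plexus genes. Their levels at day 14 are a description, since these values chose them. In the main edgeR fit Ttr alone was called, with a log2 fold change of 7.73 ± 2.09 (adjusted p = 0.0487). That call was lost without any 1 of the sham samples and without TBI replicate 2 (7.89) or 3 (5.59), and without both replicates the value was −0.29. Of the choroid plexus list 0 to 4 genes were called in the fits without 1 sample. DESeq2 called 12 of that list higher, limma-voom 0, and the fit of the 8 day 14 samples alone 10. Just inside the rule were Abca4 (a difference of 1.09), Klk4 (1.09) and Gdf7 (1.01), and just outside were Gnat2 (0.96), Slc5a5 (0.95) and Liph (0.89).

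The choroid plexus is the tissue in the ventricles that secretes cerebrospinal fluid, and its epithelium makes transport proteins and hormone carriers. Ttr had 11.5, 7.39, 10.7 and 10.2 CPM in sham and 11.3, 1407, 7036 and 4.86 in TBI. Sostdc1, a secreted inhibitor of BMP and WNT signals, had 0.328, 0.1202, 0.162 and 0.0544 CPM in sham and 0.199, 21.2, 98.2 and 0 in TBI. Kl, the hormone coreceptor klotho, had 0.459, 0.541, 0.703 and 0.327 CPM in sham and 0.597, 15.7, 63.6 and 0.422 in TBI. In TBI replicates 1 and 4 each was within or below the range of the sham samples. Kcnj13, a potassium channel of the epithelium, had 0.197, 0.2403, 0.379 and 0.762 CPM in sham and 0.7297, 14.5, 51.5 and 0.264 in TBI. Mfrp, a membrane frizzled-related protein, had 1.11, 1.44, 2.16 and 1.796 CPM in sham and 3.18, 54.4, 204 and 2.38 in TBI, and F5, coagulation factor V, had 0.918, 0.721, 1.41 and 0.4899 CPM in sham and 1.19, 27.2, 70.2 and 1.003 in TBI. Tmem72, Slco1a5, an organic anion transporter, and Glycam1, a mucin-like protein, reached 27.1, 23.1 and 15.95 CPM in replicate 3, and were at or below 0.325 CPM in every other day 14 sample but replicate 2. Replicate 3 was above replicate 2 for 42 of the 43 genes, by a median of 1.87 on the log2 scale and by 2.32 for Ttr. The 43 genes took 0.0266, 0.237, 0.983 and 0.0286% of all counts in TBI replicates 1 to 4, and 0.0197 to 0.0298% in sham.

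Samples of day 1, which the rule did not use, held the same pattern in a sham library. The filter on low counts did use them, so genes with few counts, such as Klk4 and Gdf7, could enter through that library. In sham day 1 replicate 1 the 43 genes summed to 12370 CPM, against 233 to 324 CPM in the other 5 day 1 samples. That library was at least 1 above all of the other 5 on the log2 scale for 37 of the 43 genes (86.0%), and for 157 of all tested genes (1.22%). Without TBI replicate 2, so that replicate 3 alone had to pass, 110 genes met the rule, and without replicate 3 there were 56. With a minimum of 10 counts in every sample 10 genes followed Ttr, and with a difference of at least 2 on the log2 scale 20 did.

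**Figure D5:**
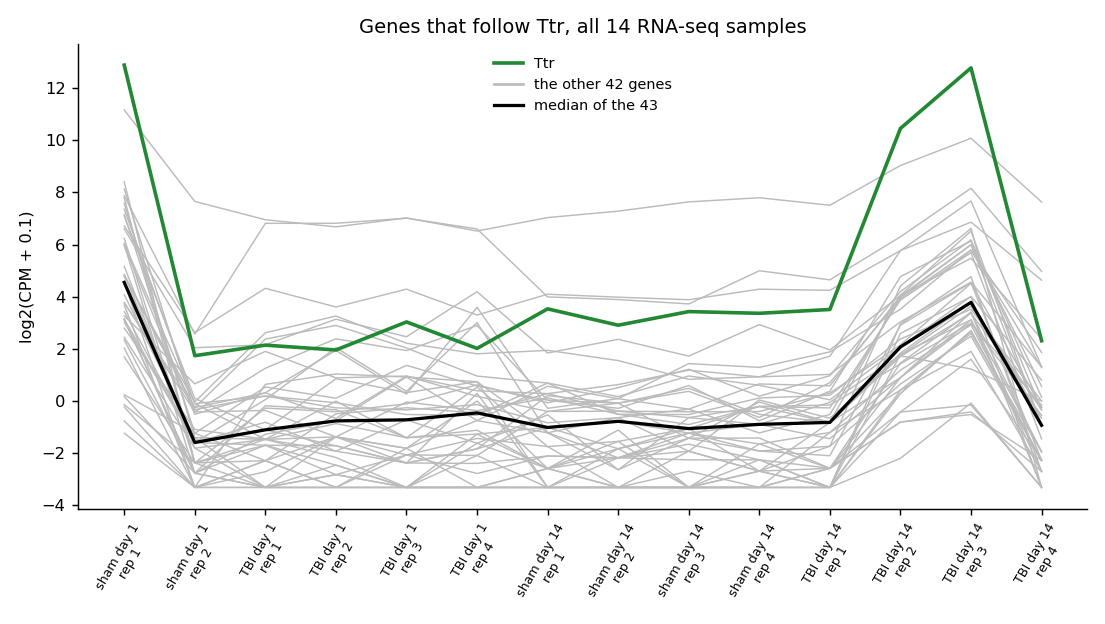
Expression as log2(CPM + 0.1) of the 43 genes that follow Ttr in each of the 14 RNA-seq samples, with Ttr in green, the other 42 in gray and their median in black. Lines join the values of a gene and imply no order of samples, and the high samples are sham day 1 replicate 1 and TBI day 14 replicates 2 and 3.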

How the data were processed

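Raw read counts per gene were analysed as the authors deposited them. Per the labels and the study's methods, polyadenylated RNA was made into stranded libraries, sequenced as single-end reads of 50 bases, aligned to rn5 with STAR 2.4.2a and counted with featureCounts 1.5.0 against UCSC genes. The strand setting of the counting is not given in the sources used here, so overlapping and antisense genes may share reads. The labels and the table hold 4 sham day 14 samples. The study gives 4 sham rats for that day in its abstract and results and 2 in its methods. The total of sham rats in those same methods goes with 4 for that day. No source ties each library to a rat. If the lower number held, some sham libraries would share a rat and the p-values would be too small. The table is a single one for all RNA-seq samples and its columns were matched to samples by name.

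Counts of the 14 RNA-seq samples were filtered (filterByExpr), scaled by TMM and fitted with edgeR 4.0.16 (R 4.3.3), with 1 mean per group, a quasi-likelihood test and Benjamini-Hochberg adjustment over the 12875 tested genes. CPM values are not divided by gene length. Alternatives were limma-voom 3.58.1, DESeq2 1.42.0, other scaling and filters, the day 14 samples alone, a replicate block, a stricter threshold, a choroid plexus covariate, and fits without 1 sample or without TBI replicates 2 and 3. The script was tested on simulated data. A floor of 3 counts per sham library was used for genes at 0. Members and lists were chosen with earlier results of these data known. Genes were named by rule: by size, 15 increased and 10 decreased DEGs with non-overlapping groups, a mean log2 CPM over 0 and no likeness to Ttr, up to 5 called members of a list by p, or the 3 with the highest mean level where fewer than 2 were called, all called cholesterol synthesis genes, Ttr with the 8 genes that follow it by the largest difference, and genes that the study names. Not every gene this allows is printed, and some are not reported here. Promoters came from RefSeq (GRCr8), matched by symbol. Peak files of the series were not used here.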

Additional observations from a re-analysis of the deposited data

Results flagged for a closer look

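In 17 of 278 groups of 4 samples tested, the values of 1 named gene in sham or in TBI at day 14, the highest or lowest sample stood so far from its neighbor that the gap, as a share of the group's whole range on the log2 CPM scale, was above Dixon's 95% critical value for 4 samples. Chance gives this in about 5% of groups.

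TBI replicate 4 was the sample standing apart upward for Kcnn4 (0.870 of the range), Bst2 (0.906), Fcgr2b (0.839), Npc2 (0.840), Cd53 (0.833), Cd300a (0.898) and Havcr2 (0.905). TBI replicate 3 stood apart downward for Cd37 (0.963), Gfap (0.839) and Batf3 (0.837). In each of these genes the sample that stood apart was still above every sham sample.

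Among the sham samples, replicate 3 stood apart downward for Cd68 (0.857), Kcnn4 (0.959) and Cyba (0.880), and replicate 4 upward for Oas2 (0.840) and Ptprc (0.960). Sham replicate 1 was low for Slc17a7 (0.886) and Tcerg1l (0.848), and the latter still lay above every TBI sample.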

How the results depend on the processing

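Counts of DEGs depended on the fit more than their direction did. DESeq2 called 119 genes lower, a fit of the 8 day 14 samples alone called 903 higher and 205 lower, an adjusted p under 0.01 left 348 and 18, and leaving out TBI replicates 2 and 3 left 16 lower. Without 1 sample there were 375 to 530 higher and 21 to 46 lower DEGs. Genes that follow Ttr numbered 20 with a difference of 2, 10 with at least 10 counts in every sample and 43 to 110 without 1 sample. Without TBI replicates 2 and 3 the sign turned for Ttr (−0.29), Tmem72 (−1.92) and Glycam1 (−3.31). In these reversals the 2 samples that carry the transcripts had been removed. The causes of the other differences were not tested. Of the 139 genes considered for the text, 124 were called and 99 of these were called under every setting that tested them. Some genes with few sham counts, such as Clec7a and F10, were tested under 17 of the 18 settings.

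The replicate numbers were not taken to pair the samples, and the sample titles do not say that they do. Deviations from the group means correlated at −0.0383, 0.131, 0.240 and 0.115 between sham and TBI samples of the same number. Between unlike numbers they correlated at −0.43 to 0.213, and not every sample correlated best with its own number. These few correlations cannot exclude shared processing. The study's figure of trajectories was corrected for a batch effect. The sample titles name no batch, and the main fit has no batch term. With the replicate block 475 genes were higher and 46 lower, of which 462 and 36 were among those called without it. Insig1, Sstr1, Slc13a5, Ccdc33, Mmp12 and Ttr were not called with the block. Depth limits genes at a few counts per library, such as Msr1 and Mmp12, and bulk RNA does not separate cell number from RNA per cell.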

Other observations

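Beyond the gene lists there were 352 higher and 29 lower DEGs, and the following were picked from them after their values were seen, so they stand for no group of genes. Cd22, a lectin that binds sialic acid and dampens signaling, had 3.41, 3.004, 3.35 and 4.57 CPM in sham and 35.4, 26.2, 31.6 and 74.96 in TBI, for a log2 fold change of 3.55 ± 0.34 (adjusted p = 1.58e-05). Lag3, which binds class II MHC and checks T cells, had 0.197, 0.3004, 0.433 and 0.272 CPM in sham and 5.04, 5.86, 4.07 and 5.91 in TBI, for a log2 fold change of 4.08 ± 0.35 (adjusted p = 9.39e-06). Cd300a and Havcr2, receptors for phosphatidylserine on dying cells, changed by 2.36 ± 0.27 (adjusted p = 8.85e-05) and 1.54 ± 0.21 (adjusted p = 0.000267). Ptpn6, the phosphatase SHP-1 that many inhibitory receptors recruit, had 13.3, 12.3, 11.3 and 13.5 CPM in sham and 45.1, 39.95, 39.2 and 53.3 in TBI, for a log2 fold change of 1.82 ± 0.15 (adjusted p = 8.56e-06). No TBI sample overlapped the sham samples for these 5 genes.

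From the same DEGs, Clec5a, an activating lectin of myeloid cells, had 0.852, 1.14, 0.974 and 1.197 CPM in sham and 4.58, 5.68, 4.17 and 7.39 in TBI, for a log2 fold change of 2.38 ± 0.25 (adjusted p = 4.31e-05). Csf2rb, the chain shared by the receptors for GM-CSF, IL-3 and IL-5, had 1.38, 2.28, 2.49 and 2.67 CPM in sham and 18.6, 10.96, 11.4 and 25.9 in TBI, for a log2 fold change of 2.91 ± 0.34 (adjusted p = 0.000106). The cannabinoid receptor gene Cnr2, transcribed by immune cells, changed by 2.36 ± 0.31 (adjusted p = 0.000244), and S100a4, a calcium-binding protein of motile cells, by 2.55 ± 0.24 (adjusted p = 1.38e-05). Replicate 4 was the highest TBI sample for all 9 genes named here.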
